A study of Mus musculus with 22 samples.

Results

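The 77 cytosolic ribosomal protein genes described here were the protein-coding rows of the deposited expression table whose symbol is Rps or Rpl followed by a number, or Rplp0 to Rplp2, or Rpsa. They made up 77 of 17440 genes, with 31 genes of the small ribosomal subunit and 46 of the large subunit. The rule used names alone and no measured value. Each of 11 mice gave 2 RNA libraries, 22 in all, prepared from hypothalamic tissue cut to hold the arcuate nucleus with the median eminence: one of an immunoprecipitate (IP), the other of its input. There were 4 MCH-hM3Dq mice, numbered 1, 3, 4 and 5, and 7 control mice, numbered 1 to 7, all of C57BL/6N background and 10 to 13 weeks old. Every mouse of both genotypes had been fasted for 12 h and had received clozapine N-oxide (CNO), the ligand of the engineered receptor hM3Dq, by intraperitoneal injection 1 h before collection. No group was fed or left without CNO, and the labels do not state which promoter or Cre line places hM3Dq in neurons that make melanin-concentrating hormone (MCH). The design counts 5 hM3Dq animals, and 1 of them was not analysed here.

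A ribosomal protein is built into the small or the large subunit of every cytosolic ribosome, so its messenger RNA is abundant in all cell types. Most of these messenger RNAs begin with a cytosine followed by a run of pyrimidines, the 5′ terminal oligopyrimidine (TOP) motif, through which the kinase complex mTORC1 and the RNA-binding protein LARP1 control their translation as a group. When mTORC1 signalling is low, as in nutrient shortage, such messengers leave the polysomes and are stored without being translated. The IP method used here, phosphoTRAP, captures ribosomes by one of these proteins, S6, once it is phosphorylated in active neurons. The input was taken from the same clarified homogenate before the antibody was added, so it holds RNA on and off ribosomes.

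The antigen of the IP is encoded by Rps6 on chromosome 4 (GRCm38, 86854660 to 86857412, minus strand). The antibody recognises S6 phosphorylated at serines 244 and 247, which lie at the end of the protein. The last bases of the Rps6 coding sequence, 718 to 747 without the stop codon, are printed here from the GENCODE transcript because they encode that epitope, with the codons of both serines in capitals.
Rps6: tctacttctaagTCTgagtccAGTcaaaaa

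Annotated transcription starts were searched for the TOP feature in RefSeq promoter windows of GRCm38.p6, which were found for 57 of the 77 members. A run of at least 5 consecutive C or T bases, on the sense strand and counted within 10 bases on either side of the start, was present in 33 of the 57, or 57.9%, against 39.3% of 11523 genes of the table with such a window. Runs of at least 8 bases were present in 19 members, or 33.3%, against 9.69% of the genes of the table. A C at the first transcribed base followed by 4 further pyrimidines was annotated in 12 members, or 21.1%, against 3.01% of those genes. These annotated starts can differ from the starts used in the hypothalamus, so a missing run describes the window and not the messenger.

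Sequences from 20 bases before the start to 20 bases from it are shown for 8 members that mark both ends of the IP result given further on, with the longest run of 5 or more pyrimidines within 10 bases of the start in capitals. The first transcribed base is the 21st letter. Rps21 and Rps27l each have a further annotated start, whose window holds no such run and is not printed. Rps6 encodes the captured protein, and Rps27, Rps21, Rpl13a and Rps3 were lower in IP than in input in both genotypes. Rps27l passed the test as lower in IP in hM3Dq mice and not in control mice, and Rpl18 and Rpl24 passed no test. The mean differences of Rps27l, Rpl18 and Rpl24 had opposite directions in the genotypes. In the order listed they lie at chr4:86857348-86857387 on the minus strand, chr3:90213629-90213668 on the minus strand, chr2:180257359-180257398 on the plus strand, chr7:45128726-45128765 on the minus strand, chr7:99483690-99483729 on the minus strand, chr9:66946066-66946105 on the plus strand, chr7:45718051-45718090 on the plus strand and chr16:55966255-55966294 on the plus strand.
Rps6: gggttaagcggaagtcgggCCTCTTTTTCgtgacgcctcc
Rps27: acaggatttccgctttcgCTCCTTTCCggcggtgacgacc
Rps21: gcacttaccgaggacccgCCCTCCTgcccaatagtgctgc
Rpl13a: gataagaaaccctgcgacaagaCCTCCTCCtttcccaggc
Rps3: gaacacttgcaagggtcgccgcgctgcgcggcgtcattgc
Rps27l: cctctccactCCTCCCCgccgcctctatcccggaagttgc
Rpl18: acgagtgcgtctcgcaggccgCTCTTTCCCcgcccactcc
Rpl24: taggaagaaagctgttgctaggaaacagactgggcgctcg

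All values below are the authors' normalized FPKM, that is, fragment counts divided by transcript length and by library total, which allows levels to be set between genes of unequal length. How many reads each library holds is unknown. Relative depth, estimated from the steps among low values, ran from 0.674 to 1.24. Markers of the arcuate nucleus were present in every library, with 8 of 9 in the table and a summed level of 115 to 725 FPKM, whereas Cldn5 of endothelial cells lay under 1 FPKM in all 22. The IP library of control mouse 5 stood apart from the other control IPs, with 1515 genes at 0 FPKM against 358 to 862. The members' shares, counts and medians in control mice are also given without that mouse, as are the control differences of some of the members described singly.

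Every member was detected in every library, and all 77 passed the filter of the tests. None of the 1694 member values was 0, and 75 members had at least 5 FPKM in all 22 libraries. The mean level per member over the 22 libraries had a median of 122 FPKM, and 51 members lay between 50 and 200. Rpl38 (539 FPKM), Rpl41 (442), Rps25 (428) and Rpl4 (382) were among the highest means. Rpl38 is known from mice for a role in translating Hox messengers, and Rpl41 encodes the smallest ribosomal protein, from a coding sequence of 75 bases. The lowest means belonged to Rpl17 (5.87 FPKM), Rpl7l1 (11.8), Rpl7a (15.6), Rps27l (16.5) and Rps2 (21.4).

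Near-identical genomic copies bear on these levels, since ribosomal protein genes have many processed pseudogenes and the handling of reads with several matches is not given in the sources used here. In GRCm38, 73 of the 77 members had at least 1 other locus with 95% identity over 80% of the coding sequence. The median was 6 copies and the highest number was 56, for Rpl21. Rpl17, Rpl7a and Rps2, 3 of the 5 members with the lowest levels, had 23, 30 and 29 copies, so their FPKM values are uncertain. Rps3, Rpl8 and Rps27l were among the members without such a copy. Across the 77 members the correlation of log2(copies + 1) with log2 mean FPKM was weak (Pearson r = -0.15, Spearman rho = -0.10), in points that share the same 22 libraries.

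As a group, the members took up a smaller part of the IP libraries than of the input libraries. Their summed share of all FPKM was 3.54% ± 0.430 (SD, n = 7) in control input and 2.31% ± 0.970 (SD, n = 7) in control IP. In hM3Dq mice it was 3.37% ± 0.317 (SD, n = 4) in input and 1.86% ± 0.102 (SD, n = 4) in IP. In control mice the share ran from 2.76% to 3.95% in input, with a median of 3.71%, and from 1.58% to 4.47% in IP, with a median of 2.06%. The share was lower in IP than in input in 10 of the 11 mice, the exception being control mouse 5. This sum was not tested. The IP library of control mouse 5 held 4.47%, while the next highest control IP held 2.12%, below the lowest control input. Without mouse 5, a choice made after seeing the data, the control shares were 1.95% ± 0.200 (SD, n = 6) in IP and 3.48% ± 0.436 (SD, n = 6) in input. Input libraries hold more RNA of other kinds, with the mitochondrially encoded genes at 1.69% to 5.61% of FPKM in input and 0.0204% to 0.642% in IP. The 0.642% belonged to the IP of control mouse 5, and the next highest IP, of control mouse 4, held 0.147%. Taken over nuclear protein-coding genes alone, the members' share was 4.30% in control input, 2.45% in control IP, 4.08% in hM3Dq input and 1.97% in hM3Dq IP.

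**Figure D1:**
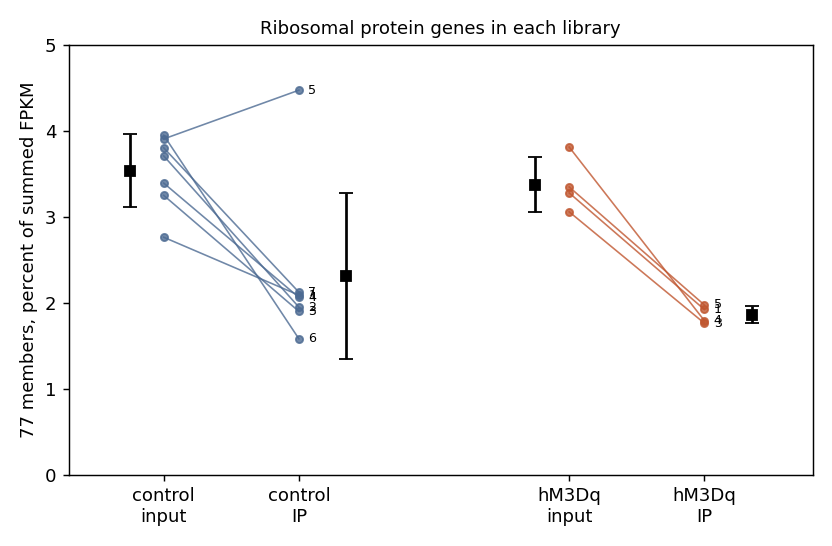
Summed share of the 77 members, in percent of all FPKM of a library, for the input and the IP of each mouse joined by a line; mouse numbers stand beside the IP points, and black squares with bars are group means with SD. The IP of control mouse 5 sits at 4.47%, above its own input, and the other 10 IP libraries lie between 1.58% and 2.12%.

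IP was compared with input within each genotype by limma on log2(FPKM + 1) with the mouse as a block, and a gene was called at an adjusted p under 0.05 over all genes tested. In control mice, 45 of the 77 members were lower in IP and none was higher, where 2.61% of the 13999 genes tested were called lower and 2.23% higher. That count depended on the fit, at 26 members without the filter on low values and 16 without the trend of the variance on mean level. Over all genes, calls in either direction fell too, to 496 and 312 in the same order, against 678. The members' median log2 difference was -0.78, against 0.03 over all genes tested. In hM3Dq mice, 68 of the 77 members were lower in IP and none was higher, where 4.9% of 12987 genes were called lower and 5.41% higher, and the median difference was -0.96 against 0.03. All 45 members called in control mice were also called in hM3Dq mice, 23 were called in hM3Dq mice alone and 9 in neither. A call in one genotype alone does not show a difference between genotypes, which was tested separately. IP and input of a mouse came from the same homogenate, so the number of cells of a type was common to both. Which cells held captured ribosomes and how much of each messenger was on ribosomes cannot be told apart in these differences. Between genotypes, fewer cells of a type and less RNA per cell cannot be told apart in bulk tissue.

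Individual mice showed the same direction with 1 exception. The median difference over the members was -0.43, -0.97, -0.80 and -0.73 in control mice 1 to 4, 0.10 in control mouse 5, -1.58 in control mouse 6 and -0.94 in control mouse 7. In hM3Dq mice 1, 3, 4 and 5 it was -0.94, -0.87, -1.15 and -0.84. In control mouse 5, 33 members were below 0 and 44 above, whereas in control mouse 6 all 77 were below 0. The spread of these medians over mice was 0.516 (SD, n = 7) in control mice and 0.140 (SD, n = 4) in hM3Dq mice, and without mouse 5 the control medians had a mean of -0.91 and an SD of 0.381. The median over all genes tested lay between 0.01 and 0.06 in every mouse.

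**Figure D2:**
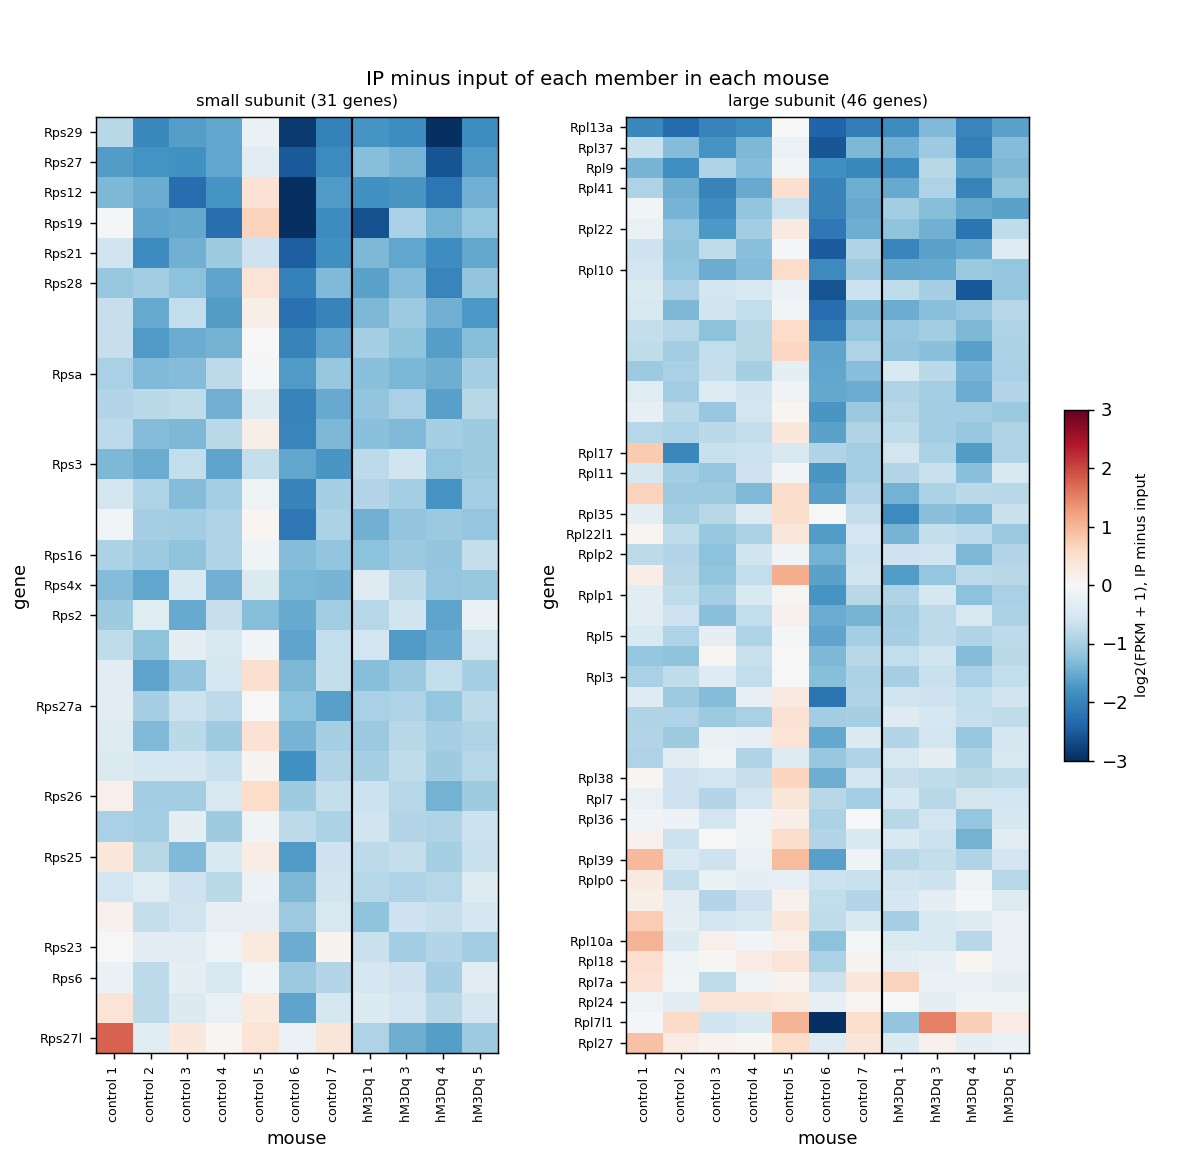
Colour gives log2(FPKM + 1) of IP minus that of input for each member (rows, ordered by the mean of both genotypes' differences, with names beside part of the genes described) in each of the 7 control and 4 hM3Dq mice (columns), with blue for lower in IP and values beyond 3 drawn in the end colour. The column of control mouse 5 is pale or red for most genes, that of control mouse 6 is below 0 for all 77, and Rps27l is blue in the 4 hM3Dq mice.

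Other measures moved with control mouse 5. Of 13 lists of cell type markers, 7 had a mean IP minus input difference in this mouse outside the range of the other 10 mice, some lower and some higher. Its markers of oligodendrocytes were lower in IP than in input by a mean of -1.85 on the log2 scale in 5 of 5 genes, those of ependymal cells by -1.83 in 2 of 2, and those of astrocytes by -1.11 in 4 of 4. The marker genes of microglia had a mean difference of -1.03, with 3 of 4 lower, and the 2 markers of oligodendrocyte precursors one of -0.47. In the other 10 mice these means ran from -0.95 to -0.30 for oligodendrocytes, -0.99 to -0.03 for ependymal cells, -0.71 to 0.49 for astrocytes, -0.86 to 0.38 for microglia and 0.02 to 0.81 for the precursors. The single marker of pars tuberalis and pituitary was higher than in any other mouse, at 2.23 against -1.37 to 1.13. Its levels were low, 0.238 to 7.13 FPKM in control IP and 0.412 to 2.36 in control input. The mean of the 8 arcuate markers was also higher than in any other mouse, at 0.71 against -0.10 to 0.59. In control mouse 5, 2 of those 8 were lower in IP than in input. Erythroid (1.15), endothelial (0.92), choroid plexus (0.80), neuronal (0.63), MCH (0.08) and tanycyte (-0.40) markers lay within the range of the others. The summed level of the 5 oligodendrocyte markers ran from 508 to 1073 FPKM in control IP, 774 to 1548 in control input, 308 to 1131 in hM3Dq IP and 618 to 1642 in hM3Dq input. In the same order the 4 astrocyte markers summed to 38.7 to 118, 71.3 to 118, 37.1 to 93.2 and 60.8 to 84.8 FPKM, the 2 ependymal markers to 0.760 to 10.2, 7.77 to 20.5, 3.73 to 9.37 and 5.21 to 10.0, and the 4 microglial markers to 17.7 to 52.3, 30.3 to 87.1, 25.9 to 39.7 and 27.5 to 48.8. None of these markers lay under 1 FPKM in all 22 libraries. The part of cell makeup in the members' values was not tested. Without control mouse 5, 56 members were called lower in control mice and the median was -0.93. Over all genes, 768 were then called in either direction, against 678 with that mouse. The 56 members were the 45 called with mouse 5 and 11 more, and 76 of the 77 members had a more negative difference. The call count also depended on other animals, with 26 members called without control mouse 2, 24 without mouse 4, 27 without mouse 6 and 25 without mouse 7. The medians then lay between -0.78 and -0.64. Genes called in either direction fell as well, to 330, 338, 433 and 381 in the same order.

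Complete separation of IP from input showed the weight of the same library. In control mice, 2 members, Rps3 and Rps2, had all 7 IP values below all 7 input values, where 1.11% of the genes tested did. Counted without mouse 5, a choice made after seeing the data, this held for 51 members, where 2.85% of genes did. In hM3Dq mice it held for 69 members, where 6.63% of genes did, and the 8 that overlapped were Rpl10a, Rpl15, Rpl18, Rpl24, Rpl27, Rpl7a, Rpl7l1 and Rps2.

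Rpl13a had the most negative difference in control mice. It encodes a large subunit protein that in human myeloid cells is released from the ribosome after interferon and represses inflammatory messengers, and it lies at chr7:45125558-45128761 on the minus strand with 4 small nucleolar RNAs (snoRNAs) annotated within it. In control mice its level was 377 to 514 FPKM in input (median 404) and 78.9 to 399 in IP (median 103). In hM3Dq mice 1, 3, 4 and 5 it was 430, 263, 396 and 315 FPKM in input and 116, 105, 100 and 102 in IP. The groups of hM3Dq mice did not overlap, and in control mice 6 of 7 IP values lay far below every input value while mouse 5 had equal levels. The log2 difference was -1.80 ± 0.236 (SE) in control mice (adjusted p = 0.00123), -2.10 ± 0.118 there without mouse 5, and -1.70 ± 0.140 in hM3Dq mice (adjusted p = 0.000134).

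Rps27, a small subunit protein with a zinc finger, on chromosome 3 (90212522 to 90213651), showed a like difference. Its control levels were 447 to 864 FPKM in input (median 551) and 136 to 566 in IP (median 156). In hM3Dq mice 1, 3, 4 and 5 input held 346, 393, 646 and 371 FPKM and IP held 142, 150, 106 and 113. Input exceeded IP in all 11 mice, and mouse 5 again gave the high control IP value. The difference was -1.66 ± 0.200 (SE) in control mice (limma adjusted p = 0.000703), -1.88 ± 0.135 there without mouse 5, and -1.74 ± 0.201 in hM3Dq mice (limma adjusted p = 0.00113).

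Rps29, a short zinc-binding protein of the small subunit encoded on chromosome 12 (69157722 to 69159186), had the most negative difference in hM3Dq mice. Control input ran from 360 to 734 FPKM (median 556) and control IP from 95.5 to 637 (median 148). The hM3Dq inputs of mice 1, 3, 4 and 5 were 395, 577, 687 and 485 FPKM, and their IPs were 115, 158, 68.5 and 133. The IP of hM3Dq mouse 4 was the lowest of all 11 and its input the highest of the 4, so this animal carried the widest gap, -3.31 against -1.76 to -1.86 in the other 3. The limma difference was -2.20 ± 0.235 (SE) in hM3Dq mice (adjusted p = 0.000778) and -1.58 ± 0.246 in control mice (adjusted p = 0.00362), or -1.81 ± 0.207 without control mouse 5.

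Rps12, which in fruit flies takes part in cell competition, was among the lowest in both genotypes. It lies on chromosome 10 and has 23 near-identical copies, so its level is uncertain. In control mice it ran from 48.2 to 87.1 FPKM in input (median 68.5) and 9.77 to 104 in IP (median 18.4), the 104 being mouse 5. In hM3Dq mice 1, 3, 4 and 5 input held 92.1, 62.6, 62.4 and 73.2 FPKM and IP 25.4, 18.0, 13.2 and 26.5, without overlap. The differences were -1.60 ± 0.306 (SE; limma adjusted p = 0.0114) in control mice, -1.94 ± 0.218 there without mouse 5, and -1.79 ± 0.155 (limma adjusted p = 0.000197) in hM3Dq mice.

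The remaining small subunit members among the 10 most negative in either genotype were Rps19, Rps21, Rps28 and Rps3. Rps19, mutated in human Diamond-Blackfan anaemia, had differences of -1.47 in control and -1.54 in hM3Dq mice, but its adjusted p in control mice was 0.0490 and its call held under 8 of 17 alternative settings. Without control mouse 5 its control difference was -1.83 (limma adjusted p = 0.00874). Rps21 differed by -1.42 and -1.57, Rps28 by -1.14 and -1.52. Rps3, which lines the entry of the messenger channel, differed by -1.31 in control mice (limma adjusted p = 0.000452, the smallest of any member there) and by -0.91 in hM3Dq mice (limma adjusted p = 0.00388). Rps3 has no near-identical copy, and control mouse 5 had a lower IP than input value for it too, with a difference of -0.71. Large subunit members in the same range were Rpl9 (-1.33 and -1.41), Rpl37 (-1.32 and -1.47) and Rpl41 (-1.27 and -1.41).

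**Figure D3:**
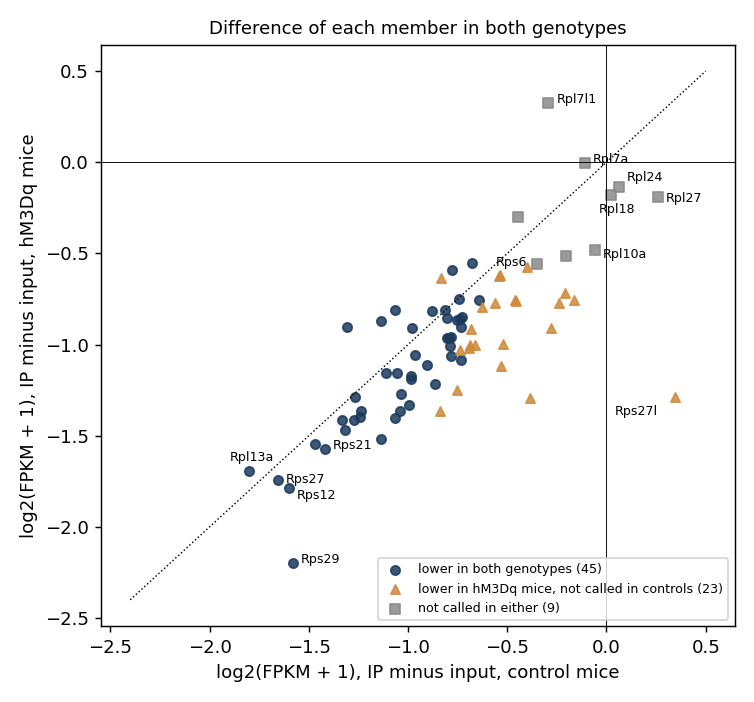
Each point is a member, with the log2(FPKM + 1) difference of IP minus input in the 7 control mice on the x axis and in the 4 hM3Dq mice on the y axis; symbols give the calls, the dotted line marks equality. The 45 members called in both genotypes spread along the line down to -1.80 and -2.20, and Rps27l lies apart, at 0.34 and -1.29.

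The order of the members was alike in the genotypes, whose comparisons share no library. Across the 77 members the control and hM3Dq differences correlated with Pearson r = 0.76 and Spearman rho = 0.76, as a description of points that share mapping, gene length and base composition. Without control mouse 5 both coefficients were 0.78. Small subunit genes had a median difference of -0.97 in control mice, with 22 of 31 called, and of -1.06 in hM3Dq mice, with 31 of 31 called. Large subunit genes had medians of -0.73, with 23 of 46 called, and -0.86, with 37 of 46 called. Without control mouse 5 the control medians were -1.03 with 26 of 31 called and -0.87 with 30 of 46 called. This split was not tested. The 10 members with a coding sequence under 300 bases had medians of -1.20 and -1.44, and the 67 longer ones of -0.75 and -0.91. Longer coding sequences went with less negative differences in hM3Dq mice (r = 0.44, rho = 0.44, n = 77) and hardly so in control mice (r = 0.13, rho = 0.12). Over all tested genes with a coding length the same correlations were 0.22 (n = 11417) and 0.07 (n = 12107), a weaker relation of the same sign. Members with higher input levels had more negative differences in control mice (r = -0.44, rho = -0.41). In hM3Dq mice the relation was weaker, above all by rank (r = -0.34, rho = -0.22). Input enters both quantities.

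Annotated features were compared in the same way, again with no test. The 29 members that host a snoRNA on their own strand had a median of -0.97 in control mice, with 21 called, and of -1.01 in hM3Dq mice, with 27 called. The 48 others had medians of -0.73, with 24 called, and -0.91, with 41 called, so in control mice this split was as wide as that by subunit. Members with a start run of at least 8 pyrimidines (19 genes) had medians of -0.69 and -0.86, against -0.82 and -1.03 in the 38 without one. The 12 members with a C start and 4 further pyrimidines had medians of -0.74 and -0.95, and the 45 without had -0.78 and -0.96. Of the windows printed above, picked with the differences known, those of Rps27 and Rpl18 both hold 9 pyrimidines in a row within 10 bases of the start. The run takes in the first transcribed base, a C, in Rps27, and begins after that base, a G, in Rpl18. Their control differences were -1.66 and 0.02, and the part of the run in them was not tested. The 18 members with 10 or more near-identical copies had medians of -0.87 and -1.06 and the 59 with fewer of -0.75 and -0.91.

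Rps6, the gene of the captured protein, differed less than the median member. Its control level was 160 to 259 FPKM in input (median 220) and 118 to 244 in IP (median 141). In hM3Dq mice 1, 3, 4 and 5 input held 172, 187, 263 and 188 FPKM and IP 120, 122, 130 and 149. All 11 mice had less in IP than in input, with no overlap of groups in hM3Dq mice. The difference was -0.54 ± 0.144 (SE) in control mice, just outside the threshold with a limma adjusted p of 0.0518 (-0.62 and 0.0295 without mouse 5), and -0.62 ± 0.139 in hM3Dq mice, with an adjusted p of 0.0227, a call that held under 7 of 13 alternative settings. Between genotypes Rps6 differed by -0.17 in IP and -0.09 in input, with neither past the threshold.

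Several members belong to known parts of the ribosome or have roles outside it. The acidic stalk proteins Rplp1 and Rplp2, which recruit elongation factors, were lower in both genotypes, by -0.73 and -0.91 for Rplp1 and by -0.81 and -0.86 for Rplp2. Rplp0, the base of that stalk, had differences of -0.35 and -0.56 and passed in neither genotype (adjusted p = 0.240 and 0.0566). Rpl5 and Rpl11, which together bind the regulator of p53 called Mdm2 when ribosome assembly is disturbed, were lower in both, Rpl5 by -0.76 and -0.87 and Rpl11 by -0.88 and -0.81. Rpl3, of the peptidyl transferase centre, was lower by -0.73 and -0.85, and Rpl10, which joins the subunit late in assembly, by -0.996 and -1.33. Rpsa, also known as the laminin receptor precursor, was lower by -1.04 and -1.27, Rps4x by -1.13 and -0.87, and Rps27a, made as a fusion with ubiquitin, by -0.81 and -0.96. Rps26, at the exit of the messenger channel, and Rps25, needed for initiation on some viral messengers, were called in hM3Dq mice alone, at -0.997 and -0.79, with control values of -0.52 and -0.63. Without control mouse 5 Rps26 was called there as well (-0.70) and Rps25 was not (-0.77, limma adjusted p = 0.0615).

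Several members showed no difference past the threshold in either genotype, namely Rpl10a, Rpl15, Rpl18, Rpl24, Rpl27, Rpl6, Rpl7a, Rpl7l1 and Rplp0, all of the large subunit. Rpl6 and Rpl15 are named after their values were seen, and Rpl18, Rpl24 and Rpl27 were singled out in the same way, as the members with a control difference above 0 and a mean over 100 FPKM. Rpl18 in control mice ran from 75.4 to 156 FPKM in input (median 115) and 80.6 to 169 in IP (median 107), and in hM3Dq mice 1, 3, 4 and 5 input held 121, 103, 96.5 and 119 and IP 95.2, 86.8, 101 and 104. Input and IP overlapped in both genotypes. Its differences were 0.02 ± 0.164 (SE) and -0.18 ± 0.126, those of Rpl24 were 0.06 ± 0.131 and -0.13 ± 0.119, and those of Rpl27 were 0.26 ± 0.150 and -0.19 ± 0.131. Under the alternatives the control difference of Rpl18 ran from -0.06 to 0.18, those of Rpl24 and Rpl27 stayed above 0, and no call was made for any of the 3. Rpl7a, with 30 near-identical copies, and Rpl7l1 had low levels and scattered values, Rpl7l1 between -3.02 and 1.52 over the mice.

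**Figure D4:**
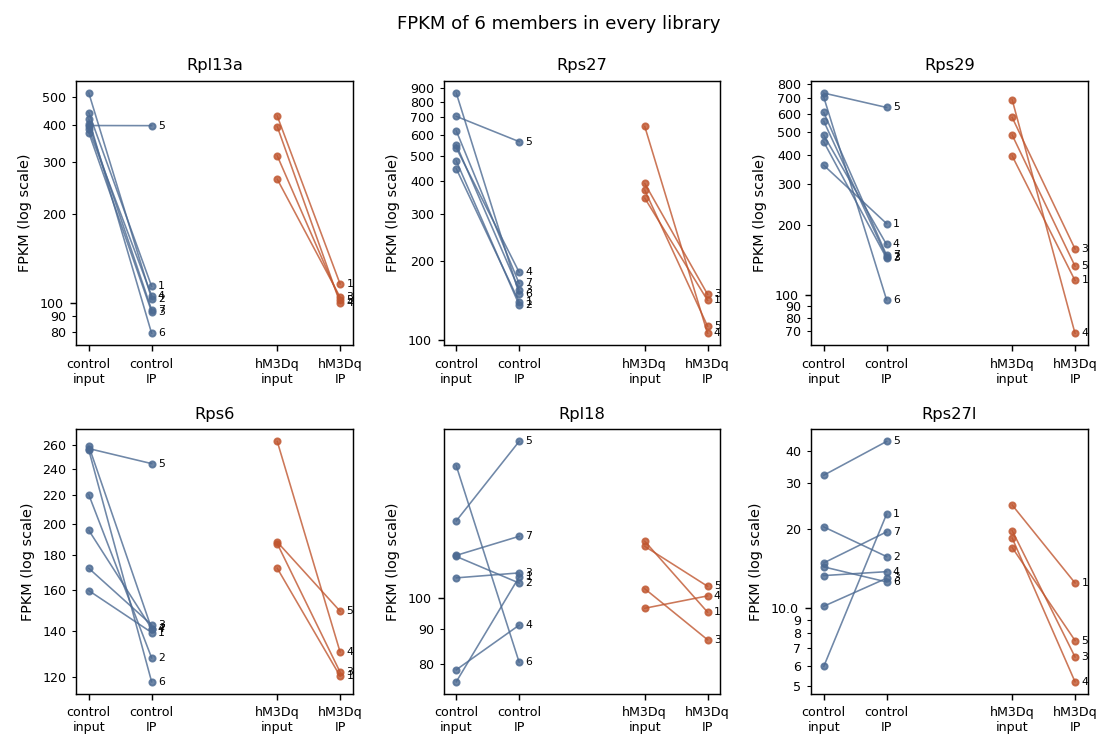
FPKM on a log scale in the input and IP of each mouse, joined by lines, for Rpl13a, Rps27 and Rps29 (among the most negative differences), Rps6 (the captured protein), Rpl18 (no difference called) and Rps27l; numbers name the mice. For the first 3 genes each hM3Dq IP lies below each hM3Dq input and control mouse 5 is the high control IP, and Rps27l is lower in IP than in input in all 4 hM3Dq mice and in 2 of 7 control mice.

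The paralogue pairs Rpl22 and Rpl22l1, Rpl7 and Rpl7l1, and Rps27 and Rps27l are among the members. Rpl22l1 was 51.1 FPKM on average against 66.9 for Rpl22. Rpl22 was lower in both genotypes (-1.07 and -1.40), and Rpl22l1 was called in hM3Dq mice (-1.002) and not in control mice (-0.66, adjusted p = 0.114). Rpl7 was called in hM3Dq mice (-0.63) with a control value of -0.54, while Rpl7l1 was called in neither, at -0.29 in control and 0.32 in hM3Dq mice. Without control mouse 5, Rpl7 (-0.69) and Rpl22l1 (-0.83) were called in control mice too.

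Rps27 and Rps27l also had unlike values. Their coding sequences are equally long, 252 bases, and identical at 192 positions, or 76.2%, with no stretch of identity longer than 11 bases. Both are printed from GENCODE transcripts, with bases that differ between them in capitals, to show how far reads of the 2 genes can be told apart. Rps27l lies at chr9:66946086-66949516 on the plus strand and is known as a target of p53.
Rps27: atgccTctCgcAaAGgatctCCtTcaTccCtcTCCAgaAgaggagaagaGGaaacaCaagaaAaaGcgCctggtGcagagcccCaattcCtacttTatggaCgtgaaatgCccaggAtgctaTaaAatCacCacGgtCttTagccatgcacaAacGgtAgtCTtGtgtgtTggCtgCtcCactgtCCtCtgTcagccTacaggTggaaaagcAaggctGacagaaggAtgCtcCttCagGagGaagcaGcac
Rps27l: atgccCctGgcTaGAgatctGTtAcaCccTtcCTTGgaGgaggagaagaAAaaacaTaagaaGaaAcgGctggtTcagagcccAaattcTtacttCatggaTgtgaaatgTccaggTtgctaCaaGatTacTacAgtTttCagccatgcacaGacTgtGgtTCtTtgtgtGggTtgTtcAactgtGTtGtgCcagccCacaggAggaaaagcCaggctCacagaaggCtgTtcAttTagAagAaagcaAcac

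Rps27l had a control level of 5.97 to 32.2 FPKM in input (median 14.4) and 12.6 to 43.4 in IP (median 15.7). In hM3Dq mice 1, 3, 4 and 5 its input level was 24.8, 19.8, 18.5 and 17.0 FPKM and its IP level 12.5, 6.49, 5.21 and 7.50. IP was below input in all 4 hM3Dq mice without overlap of the groups, and in 2 of the 7 control mice. The IP minus input difference was 0.34 ± 0.241 (SE) in control mice (limma adjusted p = 0.475) and -1.29 ± 0.194 in hM3Dq mice (limma adjusted p = 0.00411). The test of the genotype difference itself gave -1.63 ± 0.359 (SE) with an unadjusted limma p of 0.000354 and an adjusted p of 0.999 over 14582 genes, so it did not pass. Control mouse 1 had the highest difference, 1.77, and without it the genotype difference was -1.39 (adjusted p = 0.999).

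Between genotypes no member was called in any of the 3 comparisons. In IP, limma called 1 of 13531 genes, or 0.00739%, which was no member, and 4 members had an unadjusted p under 0.05, all lower in hM3Dq mice, where 5.23% of all genes did. The members' median difference in IP was -0.24 against -0.01 over all genes, with 70 of 77 below 0, and it was -0.06 without control mouse 5. In input, limma called 0 of 13512 genes, and the members' median was -0.05 against -0.02. There, 8 members had an unadjusted p under 0.05, 7 of them lower in hM3Dq mice, where 4.54% of genes had such a p. For the IP over input difference per mouse, limma called 0 of 14582 genes (0%). In that comparison 4 members had an unadjusted p under 0.05, all lower in hM3Dq mice, where 3.07% of genes had such a p. The members' median was -0.17 against 0.01. That last median was -0.04 without control mouse 5, -0.35 without control mouse 6, -0.10 without control mouse 1 and -0.11 without hM3Dq mouse 4, so each of these animals moved it by more than 1.5 times. The IP comparison and the IP over input comparison share libraries.

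The members with the smallest p were few. In IP these were Rps27l, at -1.18 ± 0.312 (SE), Rpl35, at -0.66, and Rplp0, at -0.51, with limma adjusted p-values of 0.810 or more. All 4 hM3Dq IP values of Rps27l and Rps16 lay below all 7 control IP values, 2 of 77 members, where 0.443% of 13531 genes did. For Rps27l that gap was narrow, from 12.5 to 12.6 FPKM. In input the smallest p-values belonged to Rps3 (-0.56), Rps23 (0.52) and Rps16 (-0.36), with adjusted p-values of 0.968 or more. For the IP over input difference they belonged to Rps27l, Rpl35 (-0.91) and Rpl36 (-0.53). In the authors' deposited table, which holds an unadjusted p-value for that difference, 5 members had a p under 0.05, Rps23, Rpl36, Rpl35, Rps27l and Rpl27, where 2.82% of the 17440 genes did.

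Other genes of translation, in lists chosen with results of these data known, are given beside the members. Over all genes tested, 2.61% were called lower and 2.23% higher in IP in control mice, and 4.9% and 5.41% in hM3Dq mice. Of 19 further messengers known to carry a TOP motif, 4 were lower and 1 was higher in IP in control mice, and 8 were lower and none higher in hM3Dq mice, with medians of -0.30 and -0.33. The elongation factor subunit Eef1g had a mean of 96.6 FPKM in control IP and 231 in control input, a difference of -1.34 (limma adjusted p = 0.000959), and Eef1b2 of the same complex differed by -0.73 in control and -1.19 in hM3Dq mice. Btf3, which binds nascent chains, was the gene that was higher in control IP, by 0.66. Eef1a1, the elongation factor that brings transfer RNA to the ribosome, was lower in hM3Dq mice by -0.54.

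Noncoding snoRNA host genes, several of which also have TOP starts, were also examined. Of 8 tested, 5 were lower in each genotype, where 2.61% of all genes were in control mice and 4.9% in hM3Dq mice. None was higher, and the medians were -1.27 and -1.62. Gas5, the most abundant, averaged 1898 FPKM in control input and 912 in control IP (-1.46, limma adjusted p = 0.0217), and 1888 and 450 FPKM in hM3Dq mice (-2.12, limma adjusted p = 0.000117). Snhg8, Zfas1, Snhg6 and Snhg12 were the other 4 called in both.

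The other lists had medians closer to 0. Their counts stand beside the same shares over all genes, 2.61% lower and 2.23% higher in control mice, and 4.9% and 5.41% in hM3Dq mice. None of 30 ribosome biogenesis factors was called in control mice, and Dkc1 was higher in hM3Dq mice (0.64), with list medians of 0.20 and 0.07. Of the mTORC1 and S6 kinase genes, Rptor was higher in control mice (0.95, of 15 tested) and Larp1 was higher in hM3Dq mice (0.78, of 14 tested). Of 75 mitochondrial ribosomal protein genes, 1 was higher in control mice, Mrps17 at 0.77, and in hM3Dq mice Mrpl41 was higher and Mrps21 lower, with list medians of -0.01 and -0.03. These proteins build the separate ribosome inside mitochondria. Of the subunits of oxidative phosphorylation, 1 of 73 was lower in control mice, and 1 was lower and 2 higher of 71 in hM3Dq mice. Their median differences were 0.09 and -0.06. Their median coding length was 393 bases, or 408 for the 71, and that of the members was 453. The part of coding length in these values was not tested. Rows named as pseudogenes of cytosolic ribosomal proteins had the same direction as the members, and their reads can be shared with those of the members. Of these rows, 5 of 70 tested were lower in control mice and 15 of 59 in hM3Dq mice. None was higher, and the medians were -0.44 and -0.59.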

How the data were processed

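The authors deposited 1 table of normalized FPKM values, 17440 genes by 22 libraries. Per the submitters' processing notes, HISAT2 2.1.0, StringTie 1.3.4d and GRCm38.p6 were used; the normalization, the handling of reads with several matches and the strandedness of counting are not given in the sources used here. The deposited log2 fold change (treated as a score, since some values are out of range for a log2 value) and p-value of the genotype comparison were used only where named. Genes reaching 1 FPKM in 4 or more libraries of a comparison were tested on log2(FPKM + 1) by limma 3.58.1 in R 4.3.3 (eBayes with a trend on mean level, two-sided, Benjamini-Hochberg over all genes, called under 0.05). Within a genotype, IP and input of the same mouse were paired by a mouse block, as the labels' protocol takes both from 1 homogenate; deviations of the pairs correlated with r of -0.02 to 0.12 in control and 0.17 to 0.39 in hM3Dq mice. Genotypes were not paired. Alternatives changed the pseudocount, filter, trend, scaling, mice and block. P-values rest on the spread between these mice, with the variance of each gene drawn toward the trend over all genes. Fold changes on this scale understate changes of low genes.

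Coding sequences, positions and snoRNAs came from GENCODE M21 (GRCm38), copies from blastn 2.17.0, and starts from RefSeq promoter windows. Scripts were tested on simulated data. Figures and tables used Python 3.11.15, pandas 2.3.3 and matplotlib 3.10.9. Named members were the 10 most negative calls per genotype, the 5 highest and lowest levels, the 3 smallest p-values per genotype comparison and a list by role; exceptions are stated, and the results of a few members are not reported here. The members and lists were chosen with earlier results of these data known.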

Additional observations from a re-analysis of the deposited data

Results flagged for a closer look

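Values were examined for a single mouse or library far from the rest of its group, in 94 groups of values, of which 11 held one. In independent groups chance alone gives about 1 in 20. These groups share the same mice, so the count of 11 cannot be set against that rate. The members' summed share in control IP was 4.47% in mouse 5, with the next library at 2.12%. Mouse 5 was also the highest control animal, on the log2 scale of IP minus input, for Rpl13a at -0.0013 (next -1.86), Rpl4 at 0.44 (next -0.89), Rps28 at 0.40 (next -1.05) and Rps16 at -0.13 (next -0.91). Control mouse 6 was the lowest for Rpl7l1 at -3.02 (next -0.61) and for Rps23 at -1.49 (next -0.35). Control mouse 1 was the highest for Rps27l at 1.77 (next 0.42). Among the 4 hM3Dq mice, mouse 4 was the lowest for Rps29 at -3.31 (next -1.86), mouse 3 the lowest for Rpl7 at -0.84 (next -0.57) and mouse 1 the highest for Rpl7a at 0.67 (next -0.19). Control mouse 5 has the most genes at 0 among the IP libraries, and the inputs of control mice 1 and 6 have the most among the inputs, 1895 and 1579.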

How the results depend on the processing

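Within both genotypes the members' lower level in IP kept its direction under the alternatives run, with a median below 0 in each, while counts of calls moved. Of the 45 members called in control mice, 15 were called under all 17 alternatives and 45 were lower under all; of the 68 in hM3Dq mice, 40 were called under all 13 and 68 were lower under all. In control mice 26 members and 496 genes were called without a filter on low values, and 16 members and 312 genes without the eBayes trend, against 45 and 678. One fit of all libraries called 1235 genes. In hM3Dq mice, against 1338 genes, 552 were called without a filter, 592 without the trend, 524 in one fit of all libraries and 739 with no replicate block. Without the replicate block 43 members were called in control and 64 in hM3Dq mice. Leaving out each mouse gave 24 to 56 members, 330 to 768 genes and medians of -0.93 to -0.64 in control mice, and 59 to 64 members, 575 to 836 genes and medians of -0.998 to -0.90 in hM3Dq mice. No member was called higher in either (0 in each).

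Between genotypes, members called stayed at 0 under every alternative. The 1 gene called in IP became 0 with a pseudocount of 0.1, no filter, no trend, scaling to nuclear protein-coding genes, without control mice 1, 5 and 6, or with the replicate block by shared number; leaving out each mouse gave 0 to 2 genes in IP, 0 to 1 in input and 0 to 1 for IP over input, with member medians of -0.33 to -0.06, -0.09 to 0.01 and -0.35 to -0.04. Members with an unadjusted p under 0.05 for IP over input, 4 as reported, were 2 without the trend, 7 without control mice 1, 5 and 6, 22 with the replicate block by shared number, whose numbers name different animals (correlations of -0.18 to 0.06), and 2 to 13 with each mouse left out.

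Signs turned for members near 0. In control mice Rpl18 was -0.0015 on scaling to nuclear protein-coding genes. Leaving out each mouse gave control differences of -0.060 to 0.18 for Rpl18, -0.24 to 0.14 for Rpl10a, -0.35 to 0.083 for Rpl39, -0.20 to 0.00094 for Rpl7a and -0.51 to 0.16 for Rpl7l1, and hM3Dq differences of -0.23 to 0.092 for Rpl7a and -0.074 to 0.82 for Rpl7l1. Members whose control IP values all lay below input numbered 2, and 51 without control mouse 5. Over nuclear protein-coding genes the members' share was 4.30% in control input, 4.08% in hM3Dq input and 1.97% in hM3Dq IP. A pyrimidine run of 8 in place of 5 bases left 19 of 33 members. The causes were not tested. Depth per library is unknown, so counting error cannot be given.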
